A study of Mus musculus with 8 samples.

Results

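The anaphase-promoting complex and the spindle checkpoint were followed through 33 genes, taken by symbol from a deposited table of 52224 genes. The genes are 14 core subunits of the complex, its 2 activators Cdc20 and Fzr1, its inhibitor Fbxo5, its ubiquitin-conjugating enzyme Ube2s, 9 checkpoint genes, the securin Pttg1 with the separase Espl1, and the 4 subunits of the NDC80 complex. All 33 were in the table and all 33 were tested, among 37414 genes tested in all. The fewest reads behind a value of any of them in any library was 28.

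The libraries were made from mouse bone marrow hematopoietic stem cells sorted as CD48-negative, CD150-positive cells among those that lack lineage markers and carry Sca-1 and Kit (LSK cells). The groups were 4 libraries of the genotype DekCon and 4 of the genotype DekTg, and the study's title places them in work on DEK inhibition, replication stress and stem cell function in Fanconi anemia. The labels give both names as genotype and as treatment, and they give no promoter, no construct, no strain and no age for either group. They do not say whether the 4 libraries of a group came from separate mice, so p-values measure the spread between these libraries, which may be technical.

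The anaphase-promoting complex, also called the cyclosome (APC/C), is a many-subunit ubiquitin ligase that sends cyclin B and securin to the proteasome and so starts the separation of sister chromatids and the exit from mitosis. It works with 1 activator at a time: Cdc20 in mitosis, and its paralog Fzr1 (Cdh1) from late mitosis through G1, also in cells that do not divide. The spindle checkpoint holds the complex back until kinetochores are attached to microtubules, by assembling Mad2, BubR1 and Bub3 with Cdc20. Hematopoietic stem cells are mostly quiescent, and most of these genes are known for high expression in dividing cells.

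Many genes of this pathway are transcribed late in the cell cycle, and a known feature of such promoters is a cell cycle genes homology region (CHR, TTTGAA or TTCGAA) downstream of CCAAT boxes bound by NF-Y. The promoters of 3 genes are shown because Cdc20 and Ttk are the genes whose groups did not overlap, and because Bub1b, whose protein binds Cdc20, holds the letters TTCGAA and has overlapping groups. Each is the stretch before the RefSeq transcription start on GRCm38.p6, 5′ to 3′ on the gene's strand, with matches to CCAAT (or its reverse complement ATTGG) and to the CHR in capitals. The 9 bases nearest to the start of Cdc20 were left out because GENCODE M21 places them in its first exon.
Cdc20, chr4:118437353-118437593, minus strand: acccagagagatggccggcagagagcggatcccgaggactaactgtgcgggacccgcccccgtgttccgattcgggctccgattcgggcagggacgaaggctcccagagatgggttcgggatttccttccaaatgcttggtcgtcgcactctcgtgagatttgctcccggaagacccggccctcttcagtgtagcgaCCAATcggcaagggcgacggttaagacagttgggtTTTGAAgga
Ttk, chr9:83834439-83834688, plus strand: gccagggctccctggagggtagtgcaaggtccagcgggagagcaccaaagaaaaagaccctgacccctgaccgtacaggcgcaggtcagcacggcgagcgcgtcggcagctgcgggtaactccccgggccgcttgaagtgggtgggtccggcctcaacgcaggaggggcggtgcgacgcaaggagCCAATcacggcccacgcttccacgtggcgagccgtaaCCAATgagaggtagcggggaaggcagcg
Bub1b, chr2:118597961-118598210, plus strand: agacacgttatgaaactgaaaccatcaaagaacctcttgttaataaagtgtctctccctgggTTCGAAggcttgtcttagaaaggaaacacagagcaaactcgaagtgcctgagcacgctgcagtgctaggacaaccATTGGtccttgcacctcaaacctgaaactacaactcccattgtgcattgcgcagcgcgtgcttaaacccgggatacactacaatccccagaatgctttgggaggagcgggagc

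In Cdc20 a CCAAT box began 53 bases and TTTGAA 18 bases before the start, and a further CCAAT began 8 bases before it, outside the stretch shown. Ttk held CCAAT at 65 and 28 bases and no CHR match. Bub1b held TTCGAA at 188 bases and ATTGG at 113 bases before the start, so there the TTCGAA lies upstream of the CCAAT match and not in the order described for a CHR. Of the 33 genes, 31 had an entry in the RefSeq promoter table, with 36 promoters of 250 bases. TTTGAA or TTCGAA on either strand was found in 9 of the 36, and in 5532 of 32544 promoters of all genes (17.0%). CCAAT on either strand was found in 14 of the 36 and in 11000 of all promoters (33.8%). By role, a CHR match stood in 7 of 20 promoters of the other genes and 2 of 16 of the core subunits, and a CCAAT match in 10 of 20 and 4 of 16. The counts in the 36 promoters used whole windows, exon bases included. Of the 7, the matches of Cdc20 and Bub1b lay in the exon-free stretch of their window. Those of Ube2s, Bub3, Zw10 and Espl1 did not, and the Bub3 windows overlap and hold the same match. Of the core subunits, a match of Anapc7 lay in the exon-free stretch and that of Anapc16 did not. These are counts of letters in a window, with no test, and neither motif contains the other.

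All values are normalized read counts, that is, gene counts divided by 1 size factor per library and not by gene length. Recovered reads ranged from 2525884 to 4101132 in DekCon and from 2642858 to 3591212 in DekTg. They did not differ beyond the spread between libraries (exact permutation p = 0.457, two-sided, adjusted 0.457 over 4 library measures; the smallest p that 4 against 4 libraries allow is 0.0286). The share of counts from mitochondrial genes was 2.69% to 3.34% in DekCon and 3.25% to 3.66% in DekTg (exact permutation p = 0.0571, adjusted 0.229). Summed normalized counts had an exact permutation p of 0.114 (adjusted 0.229). The part of either measure in the values below was not tested. Dek itself was listed at 395 to 632 in DekCon and at 1862 to 2710 in DekTg, a log2 fold change of 2.23 (SE 0.16, limma adjusted p = 1.14e-06), and its 4 DekTg values, like those of Cdc20, are not whole numbers of reads. Sort markers were present in both groups. Mean Slamf1 (CD150) was 268 in DekCon and 201 in DekTg. It ranged from 228 to 300 and 190 to 213, without overlap (log2 fold change -0.40, limma adjusted p = 0.711). Groups without overlap, DekTg lower, made up 1.88% of all genes. Mean Kit was 1298 and 1309, and mean Ly6a (Sca-1) 183 and 214. Cd48, whose protein the sort excludes, was read at means of 195 and 207. Markers of other cells moved with the groups. Summed B lymphoid and plasma cell markers were 491 to 1268 in DekCon and 4569 to 5399 in DekTg, summed erythroid markers 153 to 442 and 486 to 604, and summed megakaryocyte markers 2546 to 9046 and 1949 to 3237. Of 9 B lymphoid and plasma cell markers 5 were higher in DekTg without overlap and limma called 2, and of 8 erythroid markers 4 and 3. The 4 erythroid markers are globins, and 2 of the 8, Epor and Klf1, had log2 fold changes of -1.06 and -0.89 (limma adjusted p = 0.711 and 0.727). Summed neutrophil and myeloid markers were 3551 to 9150 and 2178 to 11699, and summed T cell markers 128 to 148 and 140 to 173. The part of other cells in the values below was not tested. Of all listed markers of other cells, Cd3d alone was at 0 in any library.

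Cdc20 was the one gene of the 33 that passed the test, and it was listed lower in DekTg. Cdc20 lies on the minus strand of chromosome 4, at 118432901 to 118437352 (GRCm38). Its normalized read counts were 265, 534, 320 and 323 in DekCon libraries 1 to 4 and 115, 77.8, 58.1 and 103 in DekTg libraries 1 to 4. The lowest DekCon library stood above the highest DekTg library. The means were 360 ± 119 (SD, n = 4) and 88.4 ± 25.5 (SD, n = 4), and the log2 fold change, DekTg minus DekCon on the scale log2(value + 1), was -2.01 (SE 0.22, limma adjusted p = 0.000271, 95% confidence interval -2.475 to -1.55).

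A property of these entries bears directly on that value. Within a library, a value divided by the library's step gives the number of reads, and 99.994% of the 417792 values of the table came out whole within 0.001 reads. The 4 DekTg values of Cdc20 did not: they correspond to 139.67, 64.75, 59.91 and 97.71 reads. The DekCon values were whole, at 209, 558, 340 and 418 reads. No other gene of the 33 had a value that was not whole. Among all 52224 genes, 6 had such values. Dek had them in all 4 DekTg libraries, and Cdk1 in all 4 DekTg and in 2 DekCon libraries. The others were Fos, Ifit2 and Csf2. The origin of these values is not given in the sources used here, so the Cdc20 difference is given as listed, and each count is also given without Cdc20.

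Ratios of Cdc20 to its paralog Fzr1 and to checkpoint genes restate the Cdc20 difference and are no further evidence for it. The ratio of the normalized read count of Cdc20 to that of Fzr1 was 1.42 to 1.86 in the DekCon libraries and 0.394 to 1.2 in the DekTg libraries. Its ratio to Mad2l1, the checkpoint protein that closes around Cdc20, was 1.01 to 1.47 and 0.209 to 0.653. Its ratio to Bub1b was 1.4 to 1.74 and 0.298 to 0.592, and to Bub3 0.432 to 0.757 and 0.117 to 0.245. None of these 4 ratios overlapped between the groups, and all 4 rest on the same DekTg entries of Cdc20. Per kilobase of the longest annotated coding transcript, mean Cdc20 (1.79 kb) stood at 201 in DekCon and 49.3 in DekTg, and mean Fzr1 (3.06 kb) at 69.9 and 47.0. By that length, the mean level of Cdc20 was above that of Fzr1 in DekCon and close to it in DekTg. That closeness holds for the means only, since the count ratio ran from 0.394 to 1.2 between DekTg libraries. It also rests on DekTg entries of Cdc20 that are not whole reads, and on the length taken. All annotated exons together span 1.87 kb for Cdc20 and 4.49 kb for Fzr1.

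Cdc20 shares 53 bases of exon with Elovl1, a fatty acid elongase gene on the opposite strand, and the strand setting of the counting is not given. The mean of Elovl1 was 319 ± 77.3 over the DekCon libraries and 238 ± 23.7 over the DekTg libraries (SD, n = 4 each), a log2 fold change of -0.40 (SE 0.16, limma adjusted p = 0.711). Opposite-strand overlaps were found for 5 further genes: Anapc15 with Tomt over 1825 bases, Cdc23 with Kif20a over 1271, Anapc13 with Cep63 over 239, Mad1l1 with Gm16121 over 37 and Fzr1 with Mfsd12 over 4. Reads in such stretches cannot be assigned to 1 gene without strand, and Cdc23 and Anapc15 are uncertain to that extent.

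Over all 37414 genes, limma called 3 lower (0.00802%) and 10 higher (0.0267%) in DekTg, so Cdc20 is 1 of the 3 lower calls. Without Cdc20, limma called 0 of 32 genes. At an unadjusted limma p under 0.05, 4 of the 32 were lower (Fzr1, Bub3, Ttk and Zw10) and 0 higher. With quantile normalization 2 of the 33, Cdc20 included, had an unadjusted limma p under 0.05, and with the replicate number as a block 9 of the 33. The share of all genes at that cutoff is not given here for those fits. In the fit without either, that cutoff took 3.78% of all genes as lower, 3.15% as higher, and 8.16% as lower among the 10658 genes whose mean level lies in the range of the 33. EdgeR's quasi-likelihood test on recovered reads called 0 of the 32. It placed 7 lower at an unadjusted p under 0.05 (3.62% of all genes, and 870 of the 10654 genes in that range of mean level). DESeq2 placed 4 of the 32 lower at an unadjusted p under 0.05 (2.81% of all genes, and 735 of the 10645 genes in that range). It gave an adjusted p to 8 of the 32 and called 0 of those 8. The other genes, Ttk, Zw10 and Fzr1 among them, had no DESeq2 adjusted p and could not be called by it.

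The 32 genes leaned to lower values in DekTg without any of them passing. Of the 32, 29 had a log2 fold change below 0, with a median of -0.18, and with Cdc20 it was 30 of 33. Below 0 lay 49.4% of all genes and 65.6% of the genes of like level, whose median was -0.08. With quantile normalization the median of the 32 was -0.08, with 25 below 0, and that of the genes of like level was 0.0012. Groups that did not overlap, with DekTg lower, were found for Cdc20 and Ttk, and no gene of the 33 had non-overlapping groups with DekTg higher. The shares over all genes were 1.88% lower and 2.09% higher, and 3.7% lower among the genes of like level. In bulk libraries, fewer cells in cycle and less RNA of these genes per cell cannot be told apart.

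**Figure D1:**
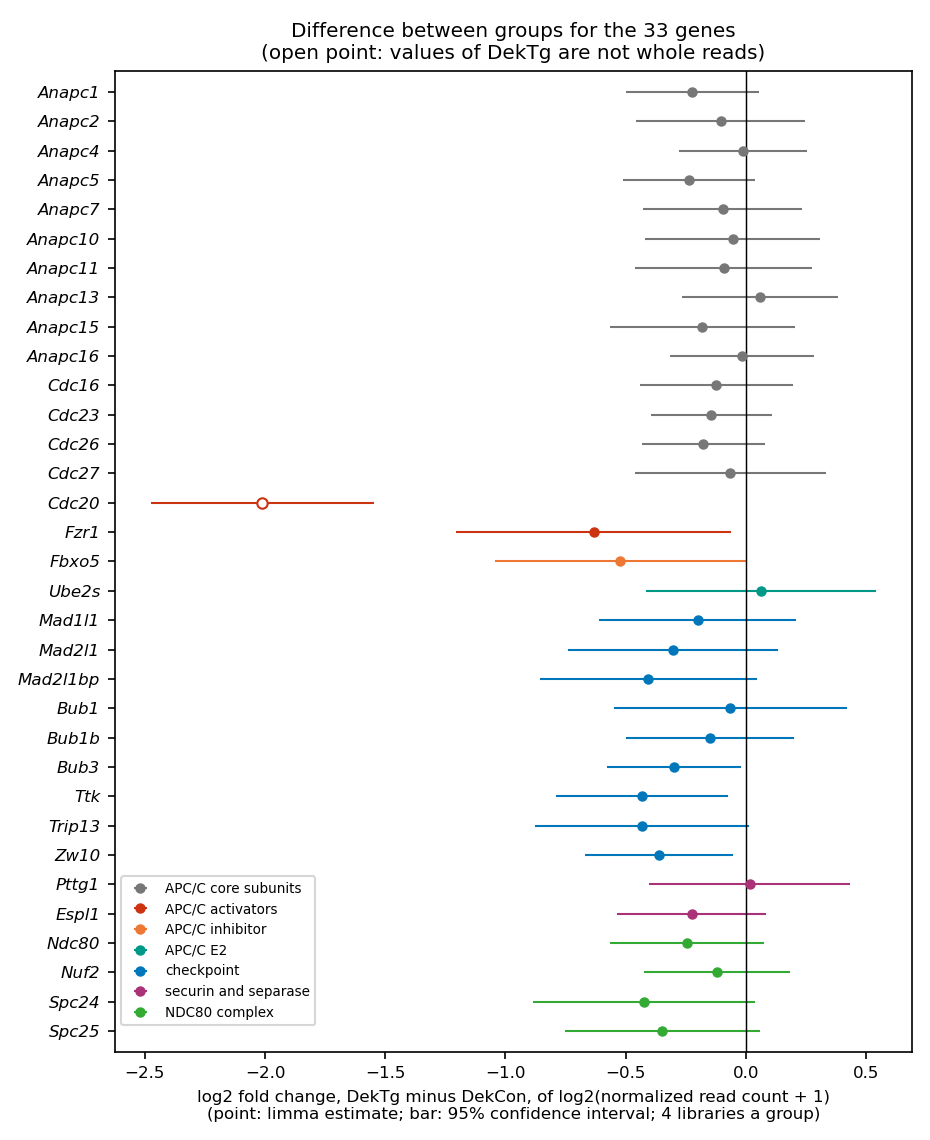
Log2 fold change (DekTg minus DekCon, of normalized read count + 1) of the 33 genes by role, with limma's 95% confidence interval, 4 libraries a group. Cdc20 (open point, DekTg values not whole reads) stands alone at -2.01, and the 14 core subunits lie between -0.24 and 0.06.

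The core subunits were close to level between the groups. None of the 14 passed the test or had an unadjusted limma p under 0.05, and the 95% confidence intervals reached down to -0.565 (Anapc15) and up to 0.383 (Anapc13). Thus a change of a core subunit by 2-fold, a log2 value of 1, lies outside all 14 intervals. Their median log2 fold change was -0.10, 13 of 14 were below 0, and with quantile normalization the median was -0.0081 with 9 of 14 below 0. Summed over the 14, normalized read counts were 3810 to 4696 in DekCon and 3645 to 4084 in DekTg.

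Within the complex, the scaffold subunits Anapc1, Anapc4 and Anapc5 had log2 fold changes of -0.22, -0.01 and -0.24, and Anapc5 was the lowest of the 14 (limma adjusted p = 0.749). The catalytic pair, the cullin-like Anapc2 and the RING subunit Anapc11, stood at -0.10 and -0.09, and Anapc10, which helps to bind substrates, at -0.05. The subunits with tetratricopeptide repeats, which carry the activator, were Cdc16 at -0.12, Cdc23 at -0.14, Cdc27 at -0.06 and Anapc7 at -0.10. The small subunits that brace them were Cdc26 at -0.18, Anapc13 at 0.06 and Anapc16 at -0.02. Anapc15, which is needed to release the checkpoint proteins from the complex, stood at -0.18. None of these differences exceeded the spread between libraries.

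Fzr1, on the minus strand of chromosome 10 at 81366222 to 81378516 (GRCm38), did not follow Cdc20 in every library. Its values were 186, 315, 180 and 174 in DekCon and 180, 64.9, 148 and 182 in DekTg. Library 2 of DekCon was high and library 2 of DekTg was low, while the other 6 libraries lay between 148 and 186, so the groups overlapped. Its log2 fold change came to -0.63 (SE 0.27, limma adjusted p = 0.711). It was -0.43 without DekCon library 2 and -0.29 without DekTg library 2.

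Fbxo5 (Emi1), which blocks the complex during S and G2 phase, ranged from 88.0 to 198 in DekCon and 61.9 to 142 in DekTg, with a log2 fold change of -0.52 (SE 0.25, limma adjusted p = 0.717), and -0.31 without DekCon library 2. Ube2s, which extends the ubiquitin chains that the complex starts, ranged from 35.5 to 79.4 and 50.4 to 68.2, with a log2 fold change of 0.06 (SE 0.23, limma adjusted p = 0.969).

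All 9 checkpoint genes had a log2 fold change below 0, with a median of -0.30, and none passed the test. Ttk (Mps1), the kinase that starts checkpoint signalling, was the one with groups that did not overlap. Its values were 98.9, 166, 122 and 104 in DekCon and 97.3, 86.5, 82.5 and 89.2 in DekTg. DekCon library 1 stood only just above DekTg library 1, and the DekTg libraries lay closer together than the DekCon libraries. The means were 123 ± 30.3 and 88.9 ± 6.24 (SD, n = 4 each), with a log2 fold change of -0.43 (SE 0.17, limma adjusted p = 0.711), and -0.28 without DekCon library 2.

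Mad2l1 (Mad2) was at 243, 404, 318 and 220 in DekCon and 176, 321, 279 and 188 in DekTg. In both groups libraries 2 and 3 were high and libraries 1 and 4 low, and the groups overlapped. Its log2 fold change came to -0.30 (SE 0.21, limma adjusted p = 0.79), and to -0.14 without DekCon library 2. Bub1b (BubR1), the pseudokinase that holds Cdc20 in the mitotic checkpoint complex, was at 189, 317, 194 and 185 in DekCon and 201, 209, 195 and 173 in DekTg. Apart from DekCon library 2, all 7 libraries lay between 173 and 209. Its difference on the log2 scale was -0.15 (SE 0.17, limma adjusted p = 0.865), and 0.04 without that library.

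Bub3, the partner of Bub1 and BubR1 at kinetochores, ranged from 507 to 705 in DekCon and 435 to 572 in DekTg (log2 fold change -0.30, SE 0.13, limma adjusted p = 0.711). Zw10, which recruits dynein and Mad1 to unattached kinetochores, ranged from 169 to 202 and 125 to 174 (-0.36, SE 0.15, limma adjusted p = 0.711). The kinase Bub1 and the Mad2 receptor Mad1l1 had log2 fold changes of -0.06 and -0.20. The pair that takes the checkpoint complex apart, the ATPase Trip13 and its adaptor Mad2l1bp (p31comet), had -0.43 and -0.41, each with overlapping groups (limma adjusted p = 0.719 and 0.739). Without DekCon library 2 these were -0.21 and -0.24, and Mad1l1 was at -0.02.

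**Figure D2:**
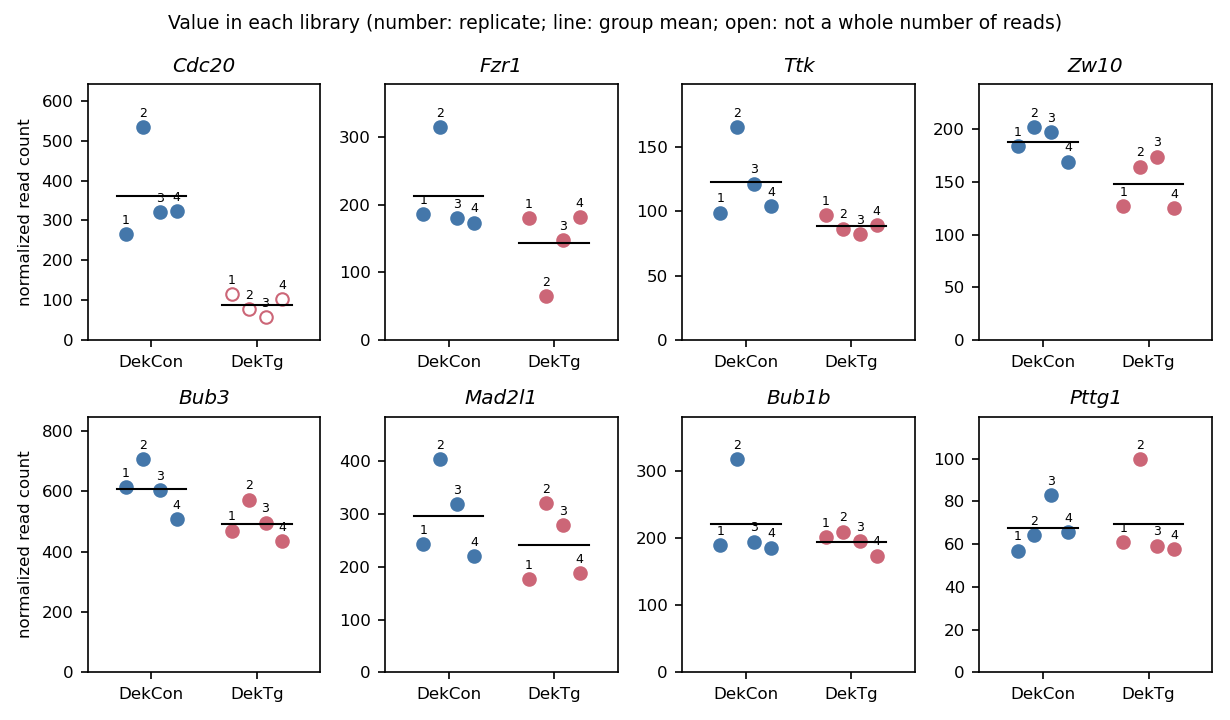
Normalized read count of 8 genes in each library of DekCon (blue) and DekTg (red); numbers are replicates, lines are group means, and open points are values that are not whole reads. The 4 DekTg points of Cdc20 lie below all 4 DekCon points, and DekCon 2 is the highest DekCon library in 7 of the 8 panels.

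The securin Pttg1, an APC/C substrate that holds separase inactive, did not differ between the groups beyond the spread between libraries. It was at 57.0, 64.1, 82.9 and 65.6 in DekCon and 61.0, 99.7, 59.2 and 57.7 in DekTg. The highest library was DekTg 2, and the other 7 lay between 57.0 and 82.9. Its difference on the log2 scale was 0.02 (SE 0.20, limma adjusted p = 0.991). Espl1 (separase), which cleaves cohesin, ranged from 130 to 194 over the 8 libraries, with a log2 fold change of -0.22 (SE 0.15, limma adjusted p = 0.784).

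The 4 genes of the NDC80 complex, which ties kinetochores to microtubules, were Ndc80 at a log2 fold change of -0.25, Nuf2 at -0.12, Spc24 at -0.42 and Spc25 at -0.35. None passed the limma test (adjusted p from 0.732 for Spc24 to 0.879 for Nuf2). Summed, the 4 stood at 597 to 1011 in DekCon and 527 to 668 in DekTg, and the highest DekCon sum was that of library 2.

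DekCon library 2 stood higher for the regulators than for the core subunits. Among the 18 genes outside the core, Cdc20 left aside, it was the highest DekCon library in 17 (94.4%). It stood above the median of the other 3 DekCon libraries by a median of 0.71 on the log2 scale. Among the 14 core subunits it was highest in 8 (57.1%) with a median of 0.17, and among the genes of like level in 43.6% with a median of 0.09. The largest values were those of Bub1 (1.10), Spc24 (0.94), Trip13 (0.88) and Fzr1 (0.80). Within DekCon the median SD of log2 values was 0.37 for the 18 genes, 0.17 for the core subunits and 0.20 for the genes of like level. Without library 2 it was 0.17, 0.14 and 0.16. Within DekTg it was 0.25 for the 18 genes and 0.19 for the core subunits.

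**Figure D3:**
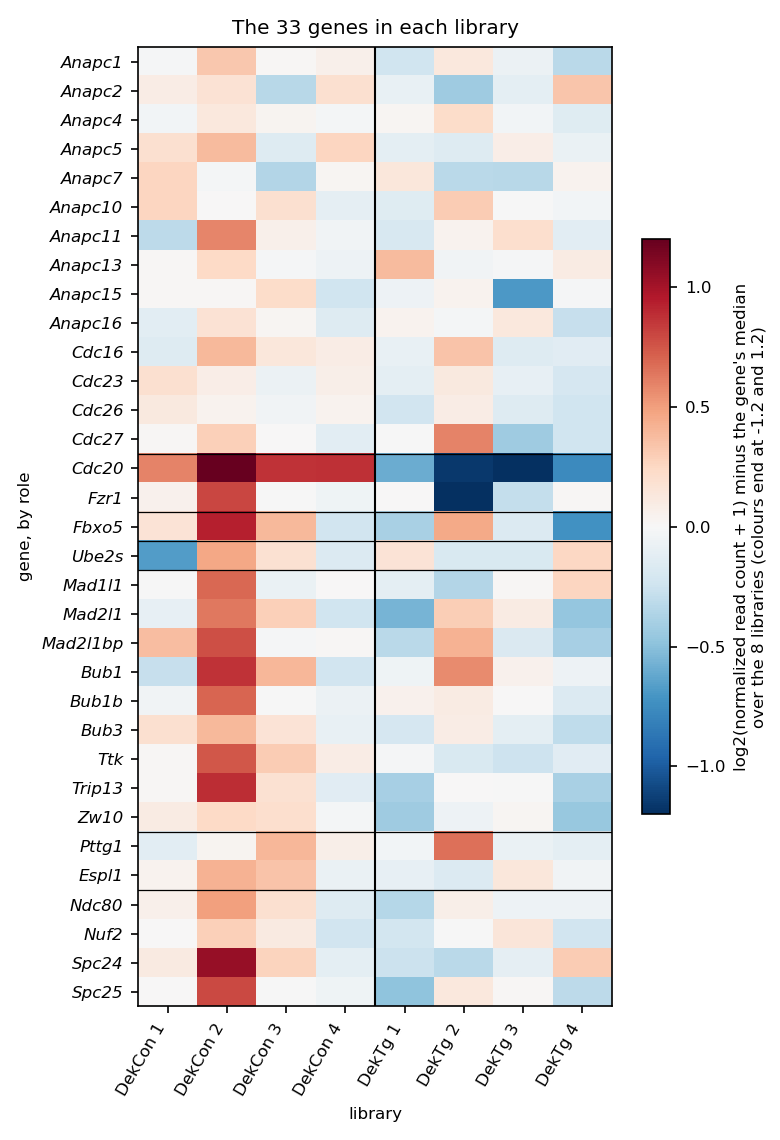
Log2 of the normalized read count + 1 of the 33 genes (rows, by role) in the 8 libraries (columns), minus each gene's median over the libraries; colours end at -1.2 and 1.2. The DekCon 2 column is high for most genes below the core subunits, and Cdc20 is high in all 4 DekCon and low in all 4 DekTg libraries.

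The same library stood out in the cycling markers Mki67, Top2a, Pcna, Mcm2, Mcm5 and Tyms. It was the highest DekCon library for 6 of 6, by a median of 0.80, and their sum was 6090 in it against 3286 to 3966 in the other 3. In DekTg the sum was 2996 to 3691. The group means of the sum, 4172 ± 1315 and 3332 ± 383 (SD, n = 4 each), did not differ beyond the spread (exact permutation p = 0.314, adjusted 0.419 over 4 measures). DekCon library 2 was also the highest DekCon library in the summed megakaryocyte markers and in the summed erythroid markers. It was the lowest DekCon library in the sum of 12 stem cell markers, Cd34, Flt3 and Cd48 included (4329, others 4629 to 7000). The same held for the summed B lymphoid and plasma cell markers (491) and the summed T cell markers (128). The part of these measures in the values of these genes was not tested.

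Without DekCon library 2, Cdc20 still passed, at a log2 fold change of -1.81, and Ttk still did not overlap. Then 0 of the other 32 genes had an unadjusted limma p under 0.05, and limma called 0 of them. Over all genes the corresponding shares were 2.51% lower at that cutoff, 2.94% lower without overlap and 51.1% below 0. Of the 10658 genes of like level, 451 were lower at that cutoff, 473 lower without overlap and 6763 below 0, with a median of -0.06. The median of the 32 was -0.13 with 24 below 0. For the 18 genes outside the core it went from -0.30 to -0.15, for the 9 checkpoint genes from -0.30 to -0.21, for the NDC80 genes from -0.30 to -0.14 and for the core subunits from -0.10 to -0.07. Bub1 went from -0.06 to 0.16 and Bub1b from -0.15 to 0.04, while Zw10 went only from -0.36 to -0.32. Ndc80 was then at -0.13, Nuf2 at -0.04, Spc24 at -0.18, Spc25 at -0.15, Espl1 at -0.14 and Anapc1 at -0.15.

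**Figure D4:**
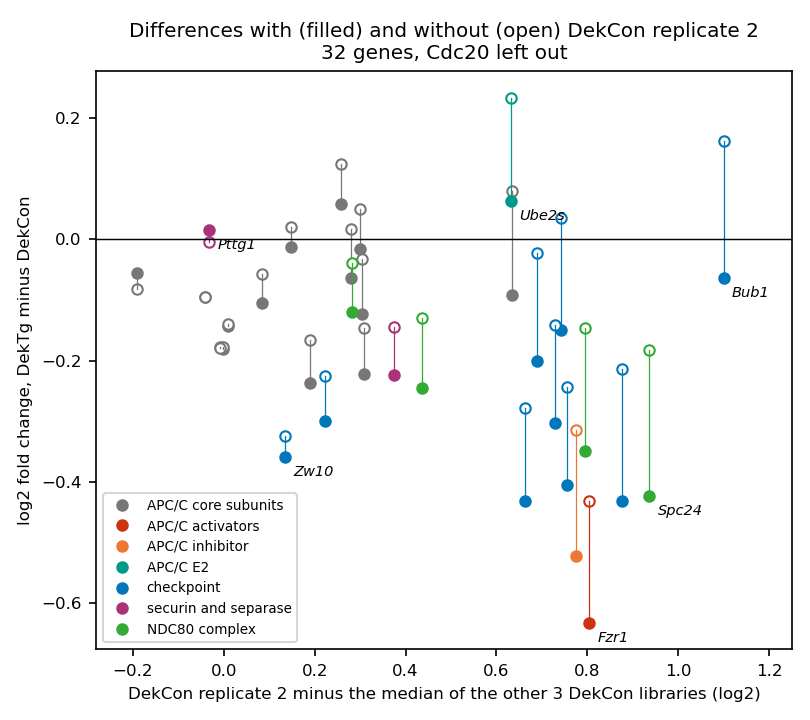
Log2 fold change (y axis) of the 32 genes other than Cdc20 with all 8 libraries (filled) and without DekCon replicate 2 (open), against how far that library stands above the median of the other 3 DekCon libraries (x axis, log2). The genes at the right, such as Bub1, Spc24 and Fzr1, move up the most when it is left out. That movement is built in, since x measures how far the same library stands above the others. The filled values share that library with x, so their slope is partly built in too.

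The other genes of the pathway were 52 further regulators, substrates and kinetochore genes, and limma called 0 of them. At an unadjusted limma p under 0.05, 11 were lower and 0 higher. EdgeR called 0 with 14 lower at that cutoff. DESeq2 gave an adjusted p to 16 of the 52, called 0 of those 16, and placed 11 of the 52 lower at that cutoff. In edgeR that cutoff took 3.62% of all genes as lower, and 870 of 10654 genes of like level. In DESeq2 it took 2.81% of all genes, and 735 of 10645 of like level. The limma cutoff took 3.78% of all genes as lower and 8.16% of the genes of like level. Of the 52, 49 had a log2 fold change below 0, with a median of -0.27, beside 49.4% of all genes and 65.6% of those of like level. Without DekCon library 2 it was 37 of 52, with a median of -0.12 and 3 at that cutoff. Of the 10658 genes of like level, 6763 were then below 0, with a median of -0.06, and 451 were lower at that cutoff. The lowest p-values were those of Pmf1, a kinetochore subunit, at a log2 fold change of -0.55 (limma adjusted p = 0.654) and the mitotic kinase Nek2 at -0.75 (limma adjusted p = 0.707). Ube2c, the enzyme that starts ubiquitin chains on APC/C substrates, had a log2 fold change of -0.71 (limma adjusted p = 0.711), and the deubiquitinase Usp37 had -0.42 (limma adjusted p = 0.711).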

How the data were processed

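RNA was extracted with a miRNeasy kit, amplified by the Geo-seq method and made into libraries with a TruePrep tagmentation kit, per the labels' protocols. The submitters' processing notes name build mm10 and the tools DESeq2, HTSeq, Cufflinks 2.1.1 and Bowtie 0.12.9. What each tool did, which annotation was used and whether counting used strand is not given in the sources used here. Each deposited value is a signal of 1 gene in 1 library: although the table is named for FPKM, 99.994% are whole multiples of 1 step per library, so they were read as gene counts scaled by a size factor and not by length. The planned test was kept. The table spells the control columns DenCon, and these were read as DekCon. Reads carry no molecular identifiers, so read numbers show counting error only.

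Genes entered the test with a value of 1 or more in 4 or more of 8 libraries. In R 4.3.3, limma 3.58.1 was fitted with its mean-variance trend to log2(value + 1), two-sided, Benjamini-Hochberg adjusted over all genes tested, with a threshold of 0.05, and it was tested on simulated data. EdgeR 4.0.16 and DESeq2 1.42.0 were run on recovered reads, leaving out the 6 genes with values that were not whole. Other alternatives were pseudocounts of 0.1 and 5, no filter and a filter at 10, quantile normalization, no trend, the replicate number as a block, libraries 1 and 4 of each group averaged, and each library left out in turn. Single measures were compared by exact permutation tests (scipy 1.17.1). Values in every library are given for Cdc20, for genes past the threshold or with groups that do not overlap, and for Fzr1, Mad2l1, Bub1b and Pttg1. Of the 52 other pathway genes, those of smallest p are named. The genes and lists were chosen with earlier results of these data known. Positions, exons and transcript lengths are from GENCODE M21 on GRCm38, and promoters from RefSeq on GRCm38.p6.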

Additional observations from a re-analysis of the deposited data

Results flagged for a closer look

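In 7 of 66 groups of 4 libraries, 1 gene's highest library stood apart, with a gap to the nearest other library above Dixon's 95% critical value for 4 libraries; chance flags about 1 in 20 groups. In DekCon it was library 2 each time: Fzr1 at 314.83 (others 173.65 to 186.35), Mad1l1 at 127.27 (74.44 to 78.72), Bub1b at 316.74 (185.23 to 194.11) and Spc25 at 268.9 (149.73 to 155.93). In DekTg it was also library 2 each time: Cdc16 at 283.48 (200.88 to 210.16), Bub1 at 134.53 (87.14 to 94.13) and Pttg1 at 99.7 (57.75 to 60.99). Values are normalized read counts. The 7 groups are not independent, since they come from the same 2 libraries.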

How the results depend on the processing

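Cdc20 passed in 15 of the 16 alternatives that held it, with limma adjusted p from 8.66e-05 to 0.189; it did not pass without the mean-variance trend (log2 fold change -2.01, adjusted p = 0.189), and then 0 of the 33 genes were called. The count was also 0 without Cdc20, and 0 with edgeR and 0 with DESeq2. Neither of these tools could include Cdc20 because its values are not whole, and DESeq2 gave an adjusted p to only 8 of the other 32 genes. With any 1 library left out, 1 of 33 was called, and the median log2 fold change was -0.24 to -0.14. It was -0.08 with quantile normalization. The replicate block gave 1 call and a median of -0.18. Same-numbered libraries did not deviate together (correlations 0.005 to 0.154 over 11808 genes), so the numbers were not taken to pair samples. Libraries 1 and 4 were closer to each other than other pairs within both groups. The chi-square of their read counts per degree of freedom, lower for closer libraries, was 1.58 in DekCon and 1.67 in DekTg. Other pairs had 4.25 to 7.83 in DekCon and 3.62 to 6.36 in DekTg. Whether libraries 1 and 4 share a source is not given, so n = 4 may overstate the independent samples. With them averaged 1 gene was called. All genes called numbered 13, and 21 without DekTg library 2. There 11 of the 33 had an unadjusted limma p under 0.05 instead of 5. That count was 1 without DekCon library 2, 9 without DekCon library 4 and 9 with the block. The share of all genes at that cutoff is not given for the fits that gave 11 or 9, so those counts have no background beside them. Over genes and alternatives, 563 values kept direction and call and 28 changed sign, none of them a called gene. With quantile normalization Anapc4 was at 0.0758, Anapc16 at 0.0662, Cdc23 at 0.0023 and Cdc27 at 0.0146, and with libraries 1 and 4 averaged Anapc13 was at -0.0095 and Ube2s at -0.1256. With 1 library left out, log2 fold changes spanned -0.1453 to 0.0029 for Anapc10, -0.2203 to 0.0804 for Anapc11, -0.0336 to 0.1245 for Anapc13, -0.0701 to 0.0667 for Anapc16, -0.2402 to 0.0139 for Anapc2, -0.0817 to 0.0416 for Anapc4, -0.2673 to 0.0727 for Cdc27, -0.2185 to 0.1628 for Bub1, -0.2213 to 0.0356 for Bub1b, -0.1691 to 0.1184 for Pttg1 and -0.1461 to 0.2338 for Ube2s. Causes were not tested. Leaving out DekCon library 2 in the count of groups without overlap was chosen after seeing the data; the count was 2 with and without it. Of the 33 genes, 30 had a 95% interval within a log2 value of 1 either way, so smaller changes may be missed.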
